A study of Danio rerio with 2 samples.

Results

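The transcription factors and signals that build the zebrafish heart were followed in RNA-seq of 2 zebrafish libraries. The genes were chosen by name from a list of 34 regulators of the heart field, the chambers, the valves and the epicardium. Of these, 33 names were placed in 39 rows of the deposited table, and 36 rows reached 1 CPM (counts scaled to library size) in 1 or both libraries, of 19829 such rows among 26597 in all. The rows below that level were tbx5b and both genes named BMP10, and nkx2.5 is not analysed here. One library is labelled salvianolate-treated, its title names embryos, and the other is labelled WT; for both the labels name total RNA and cardiac tissue. Salvianolate contains salvianolic acids extracted from the Chinese sage Salvia miltiorrhiza. The treatment stands in the genotype field of the labels, and no strain, age, dose, duration, vehicle or number of animals is given there. In the files of single libraries the counts are headed DSDF for the treated and AB72h for the WT library, names that the labels do not explain; AB72h may name a strain and an age. With 1 library per group no difference has a replicate check, and no test between the conditions is possible.

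The vertebrate heart is built from cells of the lateral mesoderm whose fate is set by GATA, NKX2, HAND and T-box transcription factors, which act together on genes of heart muscle. Other T-box factors, nuclear receptors and Iroquois factors then give atrium, ventricle and atrioventricular canal their identities, while Notch and BMP signals between endocardium and myocardium form the valves. The epicardium, a cell sheet that later covers the heart, is known by TCF21, TBX18 and WT1. Nearly all of these genes also act outside the heart, for instance in pharyngeal arches, fins, gut, muscle, kidney, retina and motor neurons. The names table writes many zebrafish genes in capitals without the letter that tells duplicated copies apart, so copies are named by their Ensembl ID, and which copy is a and which is b is not assigned.

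The treated library held 19295536 estimated counts and the WT library 19531808, and 3 counts correspond to 0.152 CPM in the treated and 0.157 CPM in the WT library. Markers of heart muscle were low beside those of skeletal muscle and skin in both libraries. The 11 of 13 heart muscle rows above 1 CPM spanned 0.66 to 16.0 FPKM in the treated and 0.65 to 18.3 FPKM in the WT library, where FPKM is the deposited level per gene length and library size. Their median was 5.68 FPKM in the treated and 6.05 FPKM in the WT library. The medians over all genes above 1 CPM were near these, at 6.11 FPKM in the treated and 5.78 FPKM in the WT library. Skeletal muscle markers spanned 5.38 to 10064 FPKM in the treated and 6.67 to 9267 FPKM in the WT library, and skin keratins 744 to 1925 FPKM in the treated and 851 to 2604 FPKM in the WT library. The labelled cardiac tissue thus stood beside abundant RNA of other tissues, and each level below is a level in that mixture. In such bulk RNA fewer cells of a type and less RNA per cell cannot be told apart. By the library labels, 532 of the 19829 genes above 1 CPM were higher in the treated library and 143 lower. Each differed by 2-fold or more, beyond counting error. The series' own text gives 109 up-regulated and 565 down-regulated genes, by the authors' own rule, which may differ. The sizes of these counts are thus not compared, but their balance is opposite. Which direction is right is not known, and every direction here follows the library labels.

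None of the 36 cardiac regulators differed by 2-fold. The largest difference was in TBX20, a T-box factor of chamber muscle, at 0.604-fold, and the best resolved were both NOTCH1 genes, at 0.722-fold and 0.666-fold. Log2 ratios of treated over WT, from counts scaled with edgeR's TMM factors, ran between -0.73 and 0.37 with a median of -0.058, beside -0.0024 over all genes above 1 CPM. An exact 95% counting interval of the ratio lay above 1 for 5 regulators, below 1 for 9 and included 1 for 22. Among all genes the rule of 2-fold with an interval that excludes 1 marked 2.68% as higher and 0.721% as lower, and the interval alone lay above 1 for 17.4% and below 1 for 17.4%. Over all 36 regulators the shares were 13.9% above and 25.0% below. Of the 26 regulators that reached 10 CPM in 1 or both libraries, intervals lay above 1 for 5 and below 1 for 7. Of all genes at that level, 19.2% lay above and 24.6% below. The members' shares are thus near the background at that level, which was chosen after the data were seen. With library totals in place of TMM factors, 7 intervals lay above and 6 below 1 among the regulators, where all genes gave 23.5% above and 11.4% below. At a fold of 1.5, TBX20 and the more abundant NOTCH1 gene were lower and no regulator was higher, beside 2.64% lower and 6.07% higher among all genes. NOTCH1 only just passed that fold, and did not with library totals (log2 ratio -0.52) or by FPKM (-0.19). Intervals cover counting error only.

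**Figure D1:**
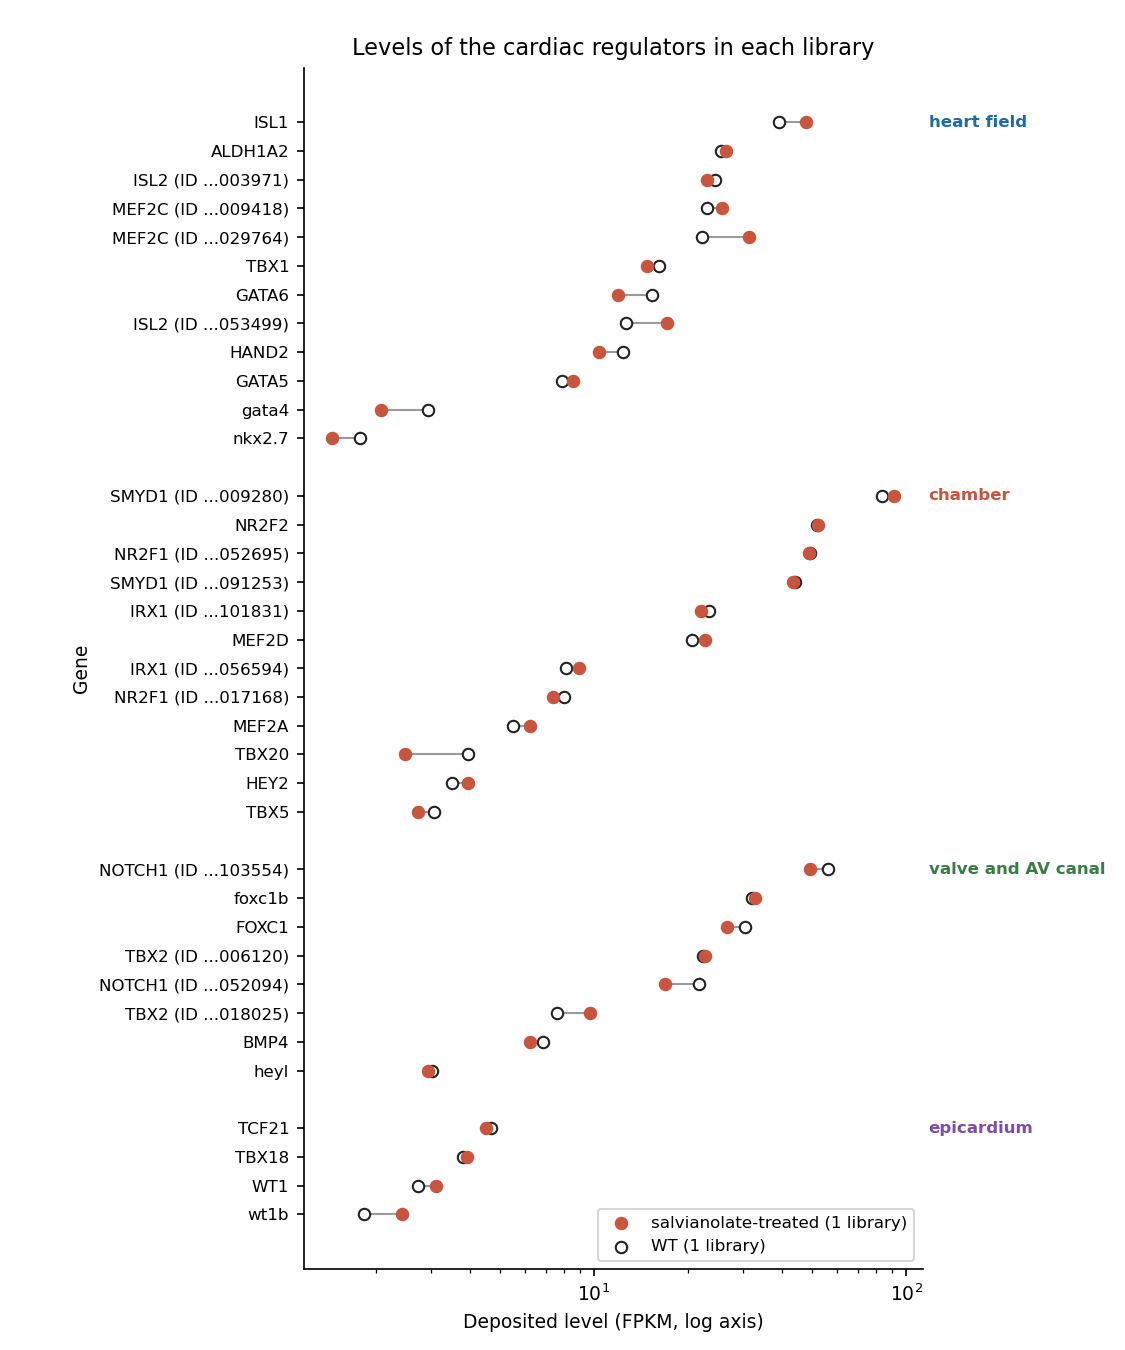
Deposited level of each cardiac regulator above 1 CPM (FPKM, log axis), 1 point for the salvianolate-treated and 1 for the WT library, ordered within its role by the WT level. Levels span 1.45 to 91.5 FPKM in the treated and 1.78 to 83.6 FPKM in the WT library, and most pairs of points nearly coincide.

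**Figure D2:**
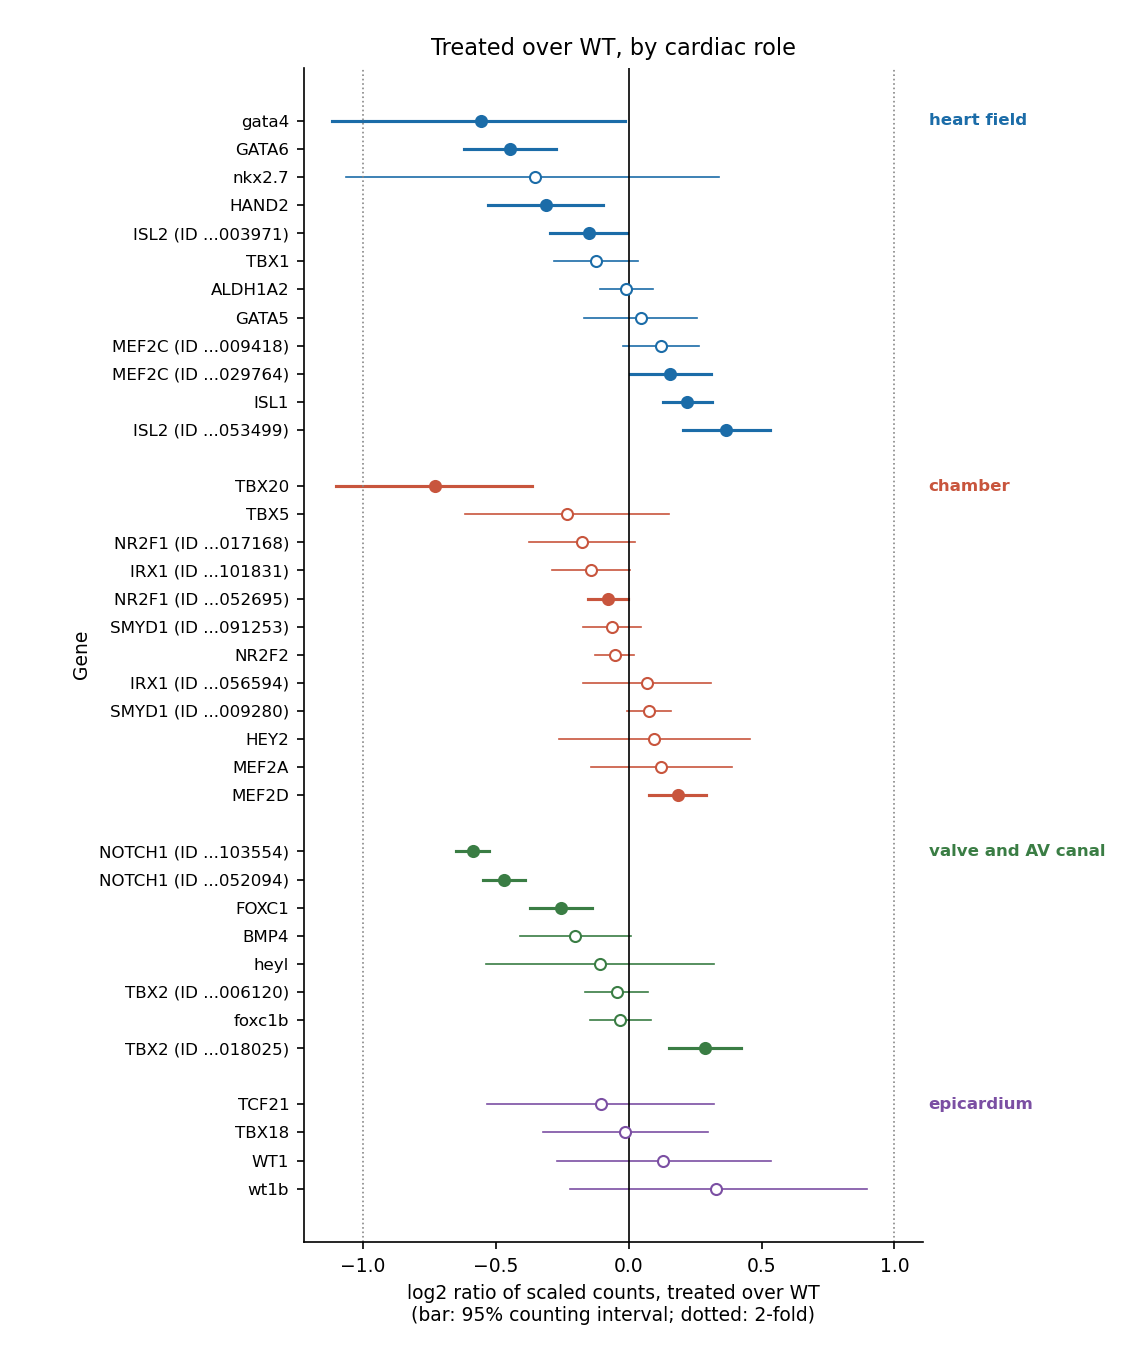
Log2 ratio of scaled counts, treated over WT, for the 36 regulators by role, with the 95% counting interval as a bar; filled points have an interval that excludes a ratio of 1 and dotted lines mark 2-fold. No point reaches a dotted line, and the lowest are TBX20, NOTCH1 and gata4.

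Compared per length, the highest level was that of a SMYD1 gene (ENSDARG00000009280), which encodes a methyltransferase and myosin chaperone needed for sarcomeres of heart and skeletal muscle. It stood at 91.5 FPKM in the treated and 83.6 FPKM in the WT library. The more abundant NOTCH1 gene, NR2F2 and the more abundant NR2F1 gene followed, at 49.1, 52.3 and 48.7 FPKM in the treated and 56.0, 51.6 and 49.2 FPKM in the WT library. NOTCH1, NR2F2 and NR2F1 act in many tissues. Heart and epicardial factors stood at a range of lower levels. HAND2, GATA6 and GATA5 had 10.4, 11.9 and 8.55 FPKM in the treated and 12.4, 15.3 and 7.93 FPKM in the WT library, above the medians over all genes above 1 CPM of 6.11 FPKM in the treated and 5.78 FPKM in the WT library. TCF21, TBX18, HEY2, heyl, TBX5, TBX20, gata4, WT1, wt1b and nkx2.7 lay below those medians, with nkx2.7, an NK2 homeobox factor of the heart field, lowest at 1.45 FPKM in the treated and 1.78 FPKM in the WT library. Ordering the genes by CPM without length kept 8 of the 10 highest.

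Among the heart field genes, 3 of 12 intervals of the ratio lay above 1 and 4 below, beside 17.4% of all genes in each direction. With library totals these numbers were 4 and 2, beside 23.5% above and 11.4% below among all genes. The GATA factors, zinc finger proteins that start heart and gut endoderm programmes, gave unlike values. GATA6 (ENSDARG00000103589) had 24.6 CPM in the treated and 33.6 CPM in the WT library, a log2 ratio of -0.45 (-0.62 to -0.27). gata4 (ENSDARG00000098952) had 2.48 CPM in the treated and 3.66 CPM in the WT library, from 49 and 70 counts, a log2 ratio of -0.56 (-1.12 to -0.01) whose interval included 0 with library totals. GATA5 (ENSDARG00000017821) had 19.3 CPM in the treated and 18.7 CPM in the WT library, a log2 ratio of 0.04 (-0.17 to 0.26), not a detectable difference at this depth. Compared within libraries, GATA6 minus GATA5 came to -0.49 (-0.77 to -0.22) on the log2 scale, so these members of one family differed from each other by more than counting error.

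HAND2 (ENSDARG00000008305), a bHLH factor that sets the number of heart muscle cells in zebrafish and also acts in fins and pharyngeal arches, had 16.7 CPM in the treated and 20.7 CPM in the WT library. Its log2 ratio was -0.31 (-0.53 to -0.10). nkx2.7 (ENSDARG00000021232) had 1.67 CPM in the treated and 2.15 CPM in the WT library, from 33 and 41 counts, a log2 ratio of -0.35 (-1.07 to 0.34). TBX1 (ENSDARG00000031891), a factor of the pharyngeal arches and the outflow tract, had 32.6 CPM in the treated and 35.4 CPM in the WT library, a log2 ratio of -0.12 (-0.28 to 0.04). Only the HAND2 difference among these was larger than counting error. ALDH1A2 (ENSDARG00000053493), which makes the retinoic acid that limits the size of the heart field, was nearly level at 84.4 CPM in the treated and 84.9 CPM in the WT library, and its log2 ratio of -0.01 (-0.11 to 0.09) turned to 0.05 with library totals.

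LIM homeobox and MEF2 factors mostly lay on the other side. ISL1 (ENSDARG00000004023), a factor of late-added heart cells and of motor and sensory neurons, had 107 CPM in the treated and 92.2 CPM in the WT library, a log2 ratio of 0.22 (0.13 to 0.31). The ISL2 genes differed from each other. The first (ENSDARG00000053499) had 36.5 CPM in the treated and 28.3 CPM in the WT library, a log2 ratio of 0.37 (0.20 to 0.53) and the highest of all regulators by counts. The second (ENSDARG00000003971) had 37.9 CPM in the treated and 42.1 CPM in the WT library, a log2 ratio of -0.15 (-0.30 to -0.01) whose interval included 0 with library totals. Taking their counts within each library, so that no scaling enters, the second minus the first came to -0.52 (-0.74 to -0.30) on the log2 scale. ISL2 factors are best known from retinal ganglion cells and motor neurons. Among all genes of at least 10 CPM, intervals lay above 1 for 19.2% and below 1 for 24.6%. Neuron markers had 5 of 8 intervals above and 3 below 1, with a summed level of 2311 CPM in the treated and 2188 CPM in the WT library, and eye markers 6 of 7 above, with 1135 CPM in the treated and 354 CPM in the WT library. Their part in the islet results was not tested.

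The MEF2 factors are MADS-box proteins that switch on contractile genes in heart and skeletal muscle. All 4 MEF2 genes had log2 ratios above 0 under each of the 4 scalings, between 0.12 and 0.18 with TMM factors. Of all 19829 genes, 9846 had a log2 ratio above 0 with TMM factors and 11888 with library totals. Of the MEF2 intervals, 2 of 4 included 1 with TMM factors, as did those of 12926 of all 19829 genes. With upper-quartile factors 3 of 4 included 1, where among all genes 16.3% lay above and 19.2% below. With library totals the intervals of MEF2D and both MEF2C genes lay above 1, beside 23.5% of all genes. MEF2D (ENSDARG00000040237) had 76.5 CPM in the treated and 67.3 CPM in the WT library, a log2 ratio of 0.18 (0.08 to 0.29). One MEF2C gene (ENSDARG00000029764) had 38.5 CPM in the treated and 34.6 CPM in the WT library, 0.16 (0.004 to 0.31) on the log2 scale, and its interval included 0 with upper-quartile factors. The other MEF2C gene (ENSDARG00000009418) had 43.0 CPM in the treated and 39.5 CPM in the WT library, 0.12 (-0.02 to 0.27), and MEF2A (ENSDARG00000031756) 12.9 CPM in the treated and 11.8 CPM in the WT library, 0.12 (-0.14 to 0.39). These ratios were smaller in size than those of GATA6 or TBX20. Of 7 skeletal muscle markers, 5 had an interval above 1 and 1 below, beside 19.2% and 24.6% of all genes of at least 10 CPM. The skeletal muscle markers summed to 21054 CPM in the treated and 20032 CPM in the WT library. Their part in the MEF2 values was not tested.

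Among the chamber genes, 1 of 12 intervals of the ratio lay above 1 and 2 below, beside 17.4% of all genes in each direction. With library totals these numbers were 2 and 1, beside 23.5% above and 11.4% below among all genes. TBX20 (ENSDARG00000005150), a T-box factor of chamber muscle and endocardium, had 5.17 CPM in the treated and 8.58 CPM in the WT library, from 102 and 164 counts. The log2 ratio was -0.73 (-1.10 to -0.36), and the interval stayed below 0 with each of the 4 scalings. TBX5 (ENSDARG00000024894), whose loss in zebrafish impairs heart looping and removes pectoral fins, had 5.53 CPM in the treated and 6.49 CPM in the WT library, a log2 ratio of -0.23 (-0.62 to 0.15). Its paralogue tbx5b had 10 counts in the treated and 12 in the WT library and was too low to compare. TBX20 was thus resolved from a ratio of 1 and TBX5 was not, and the difference TBX20 minus TBX5 within libraries was -0.50 (-1.04 to 0.04) on the log2 scale, with an interval that included 0.

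Heart muscle genes that such factors act on gave values on both sides. MYL7, the light chain of heart myosin, had 14.7 CPM in the treated and 19.2 CPM in the WT library, a log2 ratio of -0.38 (-0.61 to -0.15). The natriuretic peptide gene nppa had -0.89 (-1.17 to -0.63), the more abundant cardiac troponin T gene TNNT2 -0.54 (-0.93 to -0.16) and MYH7 -0.31 (-0.56 to -0.05). Against these, the light chain gene myl4 had 0.40 (0.18 to 0.63) and the most abundant of the heart muscle rows, a gene named MYH6 (ENSDARG00000079564), 0.38 (0.23 to 0.54). The intervals of myh6, cmlc1, nppb, a further MYH6 gene and the TNNI1 gene above 1 CPM included 1, and the other TNNI1 and TNNT2 genes were under 1 CPM. The list summed to 126 CPM in the treated and 130 CPM in the WT library, with 4 of 11 intervals below 1 and 2 above, and a median of -0.17. Among all genes 17.4% lay in each direction, and at 10 CPM or more 24.6% below and 19.2% above. The lower TBX20, GATA6, gata4 and HAND2 levels thus stood beside lower MYL7 and nppa and beside higher myl4, and the part of heart muscle content in them was not tested.

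NR2F1 and NR2F2 encode COUP-TF nuclear receptors, which set atrial identity and act widely in brain and veins. They were among the most abundant regulators and differed little. NR2F2 (ENSDARG00000040926) had 150 CPM in the treated and 156 CPM in the WT library, and its log2 ratio of -0.05 (-0.13 to 0.02) turned to 0.01 with library totals. The more abundant NR2F1 gene (ENSDARG00000052695) had 143 CPM in the treated and 150 CPM in the WT library, -0.08 (-0.154 to -0.003) on the log2 scale, and its interval included 0 with library totals. The less abundant one (ENSDARG00000017168) had 20.2 CPM in the treated and 22.8 CPM in the WT library, -0.18 (-0.38 to 0.02) on the log2 scale. NR2F2 and the more abundant NR2F1 gene had the narrowest intervals of these nuclear receptors.

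The remaining chamber genes had intervals that included a ratio of 1 with TMM factors. HEY2, the gridlock repressor that shapes artery and ventricle in zebrafish, had 6.998 CPM in the treated and 6.54 CPM in the WT library, a log2 ratio of 0.10 (-0.26 to 0.46). The IRX1 genes, Iroquois homeobox factors of ventricle and nervous system, had 37.3 and 15.3 CPM in the treated and 41.1 and 14.5 CPM in the WT library, log2 ratios of -0.14 (-0.29 to 0.005) and 0.07 (-0.17 to 0.31). The SMYD1 genes had 129 and 69.1 CPM in the treated and 122 and 72.3 CPM in the WT library, log2 ratios of 0.08 (-0.01 to 0.16) and -0.06 (-0.17 to 0.05). The interval of the more abundant IRX1 gene lay below 0 with upper-quartile factors (-0.30 to -0.01), and that of the more abundant SMYD1 gene above 0 with library totals (0.06 to 0.22). BMP10, a ligand of heart muscle that supports growth of trabeculae, had 6 and 4 counts in the treated and 1 and 3 in the WT library for its 2 genes, too few for a comparison.

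Among the genes of the valves and the atrioventricular canal, 1 of 8 intervals of the ratio lay above 1 and 3 below. Among all genes 17.4% lay in each direction, and at 10 CPM or more 19.2% above and 24.6% below. With library totals the group's numbers were again 1 and 3, beside 23.5% above and 11.4% below among all genes. The best resolved differences of all regulators were those of the NOTCH1 genes, which had many counts. NOTCH1 encodes a receptor that is cut on contact with a ligand and then acts in the nucleus; in the zebrafish endocardium it takes part in valve formation, and it is widely used in the nervous system. The more abundant NOTCH1 gene (ENSDARG00000103554) had 177 CPM in the treated and 266 CPM in the WT library, from 3492 and 5084 counts, a log2 ratio of -0.59 (-0.65 to -0.52). The other (ENSDARG00000052094) had 114 CPM in the treated and 158 CPM in the WT library, from 2250 and 3019 counts, a log2 ratio of -0.47 (-0.55 to -0.39). Both intervals lay below 0 with each of the 4 scalings. By FPKM the log2 ratios were smaller in size, -0.19 for the more abundant gene and -0.36 for the other. Compared within libraries, the less abundant gene's count ratio exceeded the other's by 0.12 (0.02 to 0.22) on the log2 scale, but by FPKM this difference turned to -0.17, so its sign depends on the measure. The Notch target heyl (ENSDARG00000055798) had 4.67 CPM in the treated and 5.02 CPM in the WT library, -0.11 (-0.54 to 0.32) on the log2 scale, not a detectable difference at this depth.

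**Figure D3:**
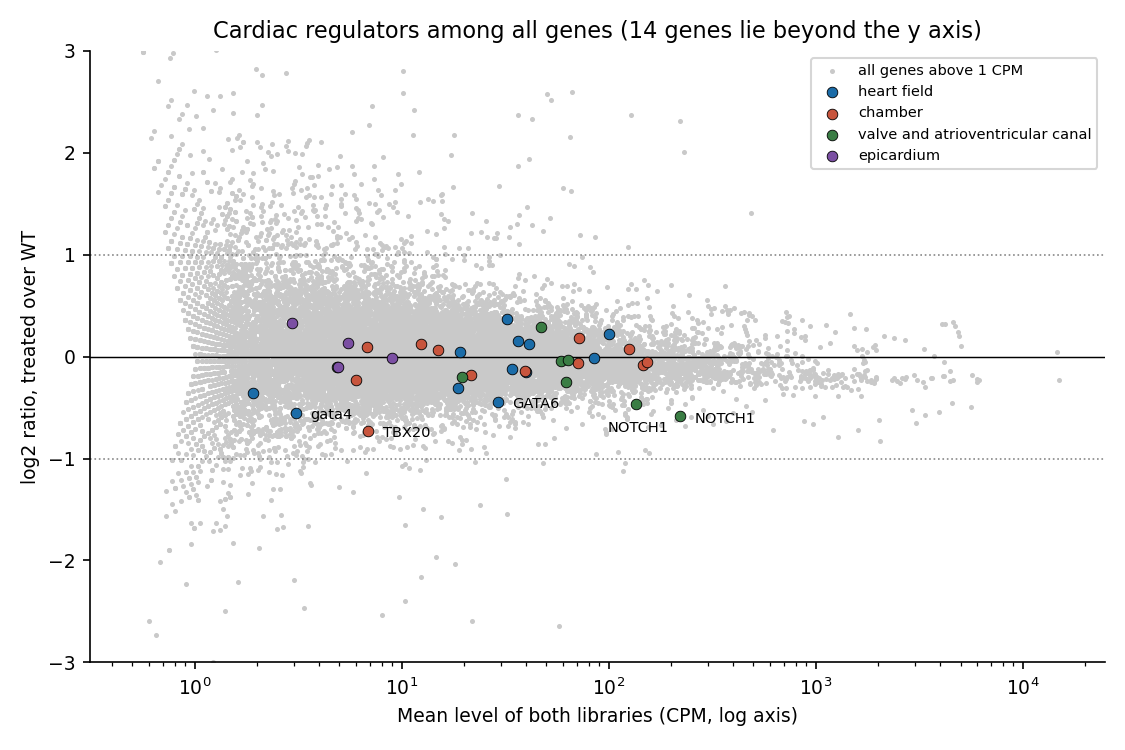
Log2 ratio of scaled counts, treated over WT, against the mean level of both libraries (CPM, log axis) for all genes above 1 CPM (grey) and the cardiac regulators by role; 14 genes lie beyond the y axis. Both NOTCH1 genes lie low among genes of their level, TBX20 and gata4 lie where the spread of all genes is wider, and no regulator passes the dotted lines of 2-fold.

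TBX2 factors repress chamber genes in the atrioventricular canal and also act in the eye and other organs. The TBX2 genes stood apart from each other. One (ENSDARG00000018025) had 51.9 CPM in the treated and 42.5 CPM in the WT library, a log2 ratio of 0.29 (0.15 to 0.42). The other (ENSDARG00000006120) had 58.0 CPM in the treated and 59.9 CPM in the WT library, with 1144 counts in each, and its log2 ratio of -0.05 (-0.16 to 0.07) turned to 0.02 with library totals. Within libraries the second minus the first was -0.33 (-0.51 to -0.15). A similar but smaller gap was seen in the forkhead genes of neural crest, endothelium and outflow tract. FOXC1 (ENSDARG00000091481) had 56.7 CPM in the treated and 67.7 CPM in the WT library, -0.25 (-0.37 to -0.14) on the log2 scale. foxc1b (ENSDARG00000055398) had 62.8 CPM in the treated and 64.2 CPM in the WT library, and its log2 ratio of -0.03 (-0.15 to 0.08) turned to 0.03 with library totals. FOXC1 minus foxc1b came to -0.22 (-0.39 to -0.06). BMP4 (ENSDARG00000019995), a ligand of the canal and the inflow pole, had 18.3 CPM in the treated and 21.0 CPM in the WT library, -0.20 (-0.41 to 0.01), with an interval below 0 with upper-quartile factors only.

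Over 9 pairs of copies, the intervals of the difference between copies excluded 0 for ISL2, TBX2, NOTCH1, FOXC1 with foxc1b, and SMYD1, where it was 0.14 (0.004 to 0.28). They included 0 for MEF2C, NR2F1, IRX1 and WT1 with wt1b. FPKM gave nearly the same differences for 7 of these pairs, but for NOTCH1 -0.17 in place of 0.12, and for MEF2C -0.34 in place of -0.03, each as the gene first in ID order minus the other. Near-identical stretches of copies can have their reads split by the authors' estimation, which makes the value of a single copy less certain. How often other pairs of genes differ in this way was not measured, so the number of such copies is not a result about these genes. For single genes, 17.4% of all intervals lay in each direction, and at 10 CPM or more 19.2% above and 24.6% below.

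None of the 4 epicardial genes was resolved from a ratio of 1. The same held for 12926 of all 19829 genes above 1 CPM, so this is not particular to the epicardial genes. TCF21 (ENSDARG00000036869), a bHLH factor of epicardium and head muscle, had 4.72 CPM in the treated and 5.08 CPM in the WT library, a log2 ratio of -0.11 (-0.53 to 0.32). TBX18 (ENSDARG00000036930) had 8.98 CPM in the treated and 9.05 CPM in the WT library, and its log2 ratio of -0.01 (-0.32 to 0.30) turned to 0.05 with library totals. WT1 (ENSDARG00000031420) and wt1b (ENSDARG00000007990), zinc finger factors of epicardium and of kidney podocytes, had 5.73 and 3.30 CPM in the treated and 5.23 and 2.62 CPM in the WT library. Their log2 ratios were 0.13 (-0.27 to 0.53) and 0.33 (-0.22 to 0.90). At 50 to 177 counts per gene and library, the intervals of these genes reach from 0.692-fold to 1.86-fold. The podocyte marker NPHS1 had 4.26 CPM in the treated and 4.81 CPM in the WT library, a log2 ratio of -0.18 (-0.62 to 0.27).

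The other genes of the pathways were read from lists beside the members, without the members' own rows. Of 19 Notch pathway genes, 13 intervals of the ratio lay below 1 and 1 above, beside 17.4% of all genes in each direction. Among all genes of at least 10 CPM, a level that most of the list reached, 24.6% lay below 1 and 19.2% above. None differed by 2-fold, and the median log2 ratio was -0.20. With library totals 9 lay below and 2 above, beside 11.4% below and 23.5% above among all genes. NOTCH3, the most abundant, had 322 CPM in the treated and 473 CPM in the WT library, a log2 ratio of -0.55 (-0.60 to -0.51). The ligand gene dlb, the lowest, had 71.9 CPM in the treated and 122 CPM in the WT library, -0.76 (-0.86 to -0.67), while the endothelial ligand gene dll4, the highest, had 19.8 CPM in the treated and 18.5 CPM in the WT library, 0.10 (-0.11 to 0.31). The receptor gene notch2, at 172 CPM in the treated and 173 CPM in the WT library, had a log2 ratio of -0.01 (-0.08 to 0.06); it and the next genes were singled out after their values were seen. The ligand gene DLD, at 214 CPM in the treated and 201 CPM in the WT library, was the 1 gene of the list with an interval above 1, at 0.10 (0.03 to 0.16). The glycosyltransferase gene LFNG had -0.47 (-0.56 to -0.38), the ligand gene jag1a -0.66 (-0.87 to -0.46), and the feedback inhibitor genes named NRARP -0.66 (-0.89 to -0.45) and -0.41 (-0.51 to -0.30). The NOTCH1 levels thus stood beside lower levels of most, though not all, of the pathway's genes. Endocardium and endothelium markers had 2 of 7 intervals below 1 and none above with TMM factors. With library totals 1 lay below and 1 above, and with upper-quartile factors 3 below and none above. These markers summed to 237 CPM in the treated and 254 CPM in the WT library. Their log2 ratios ran between -0.22 for pecam1a and 0.10 for TIE1, with the most abundant, FLI1, at -0.21 (-0.32 to -0.09). The part of endothelial and neural cells in the Notch values was not tested.

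**Figure D4:**
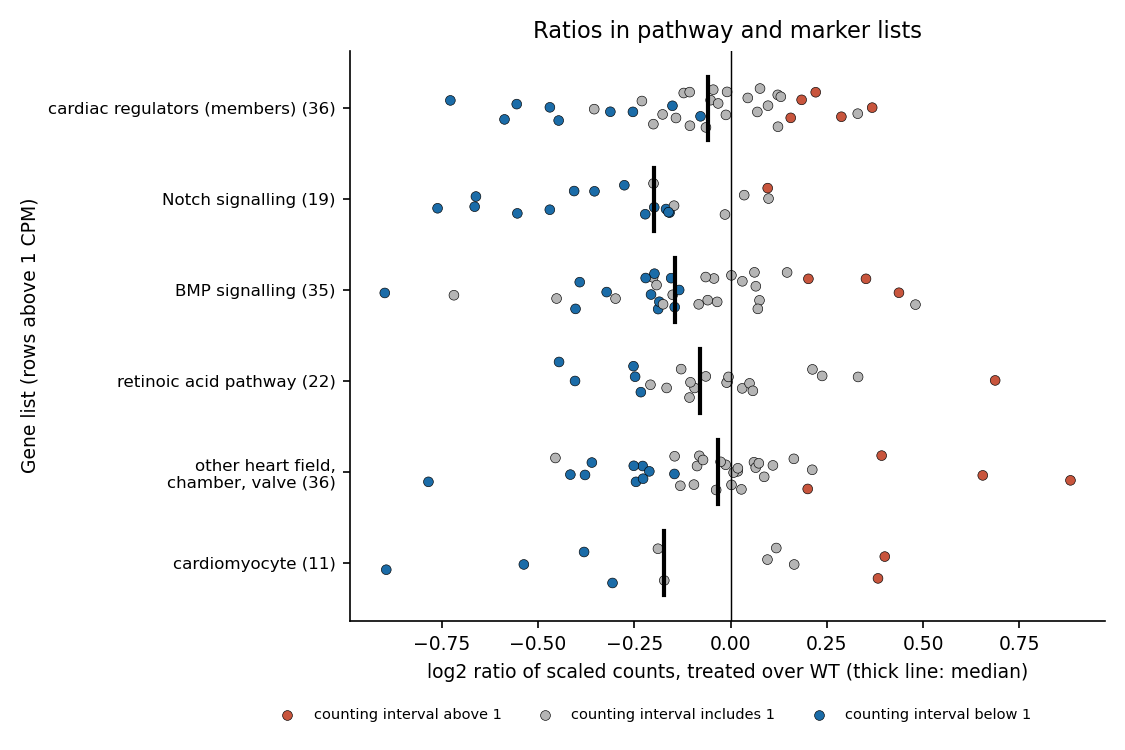
Log2 ratios of scaled counts, treated over WT, of the cardiac regulators and of 5 pathway and marker lists without the members' rows; each point is a gene above 1 CPM coloured by its counting interval, and thick lines are medians. The Notch list has its median at -0.20 with 13 of 19 intervals below 1, and the regulators theirs at -0.058. Among all genes 17.4% of intervals lie below 1, and 24.6% at 10 CPM or more.

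BMP pathway genes had 12 of 35 intervals below 1 and 3 above, with a median log2 ratio of -0.15 and none at 2-fold. Among all genes 17.4% lay in each direction, and at 10 CPM or more 24.6% below and 19.2% above. With library totals 8 lay below and 3 above, with a median of -0.08, beside 11.4% below and 23.5% above among all genes. ID1, a target of BMP signals and the most abundant, had 325 CPM in the treated and 370 CPM in the WT library, a log2 ratio of -0.19 (-0.23 to -0.14). The ligand gene bmp7a was lowest at 1.67 CPM in the treated and 3.14 CPM in the WT library, -0.90 (-1.57 to -0.27). BMP4 at -0.20 (-0.41 to 0.01) lay below the list's median, which its interval included. Retinoic acid genes had 5 of 22 intervals below 1 and 1 above, with a median of -0.08. With library totals both numbers were 4. The shares of all genes are those given for the BMP list. The receptor gene RARG, most abundant at 94.0 CPM in the treated and 94.5 CPM in the WT library, had -0.01 (-0.10 to 0.09). CYP26C1, which breaks down retinoic acid, was lowest with -0.45 (-0.73 to -0.16), and a gene of the retinaldehyde reductase DHRS3 highest with 0.69 (0.35 to 1.03). The other DHRS3 gene, which was more abundant, lay on the other side. It had 20.7 CPM in the treated and 24.6 CPM in the WT library, a log2 ratio of -0.25 (-0.45 to -0.06). ALDH1A2, the synthesis enzyme among the members, lay beside the list's median.

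Of 36 other heart field, chamber and valve genes above 1 CPM, 10 had an interval below 1 and 4 above, with a median log2 ratio of -0.03. Among all genes 17.4% lay in each direction, and at 10 CPM or more 24.6% below and 19.2% above. The list's shares were 27.8% below and 11.1% above. The share below is near that of genes at 10 CPM or more only, and the share above is smaller than both. With library totals 8 intervals lay below and 8 above, 22.2% of the list each, beside 11.4% below and 23.5% above among all genes. HDAC1, a histone deacetylase active in most tissues and the most abundant, had 487 CPM in the treated and 578 CPM in the WT library, a log2 ratio of -0.25 (-0.29 to -0.21). FOXN4, which in zebrafish drives tbx2b in the atrioventricular canal and also acts in retinal and spinal progenitors, was lowest at 24.6 CPM in the treated and 42.4 CPM in the WT library, -0.78 (-0.95 to -0.62). The interval of the TBX2 gene at 0.29 (0.15 to 0.42) lay above 1, and that of the other, at -0.05 (-0.16 to 0.07), included 1. A link between the FOXN4 and TBX2 values was not tested. A gene of the growth factor FGF8 was highest at 2.43 CPM in the treated and 1.31 CPM in the WT library, 0.88 (0.17 to 1.66). Pectoral fin bud markers, given because TBX5 and HAND2 act there too, had 4 of 4 intervals that included 1 with TMM factors. So had 12926 of all 19829 genes. The markers ran between TBX4 at -0.06 (-0.52 to 0.40) and fgf24 at 0.29 (-0.17 to 0.77), with PRDM1, the most abundant, at 0.14 (-0.001 to 0.29). With library totals, and with DESeq2's median of ratios, 1 of the 4 intervals lay above 1, beside 23.5% and 17.5% of all genes.

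Counts and FPKM gave close ratios for most regulators, but not for all. Across genes the FPKM log2 ratio exceeded the count ratio by a median of 0.063. This offset is one of scaling, because the deposited FPKM carry no TMM factors. The median count log2 ratio of all genes was 0.0603 with library totals and -0.0024 with TMM factors. With this offset included, the gap was larger than 0.2 in size for 2 of 36 regulators, beside 4.02% of all genes. The more abundant NOTCH1 gene had a log2 count ratio of -0.59 but an FPKM ratio of -0.19, from 49.1 FPKM in the treated and 56.0 FPKM in the WT library. The MEF2C gene with ID ENSDARG00000029764 had a count ratio of 0.16 and an FPKM ratio of 0.50, from 31.3 FPKM in the treated and 22.2 FPKM in the WT library. For these genes the estimated count per unit of FPKM differed between the libraries. The other NOTCH1 gene, with -0.47 by counts and -0.36 by FPKM, showed a gap of 0.11, which includes the offset of scaling. TBX20 was the lowest regulator by FPKM too, at -0.67, whereas the highest by FPKM was the same MEF2C gene and not the ISL2 gene that led by counts, which had 0.43.

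**Figure D5:**
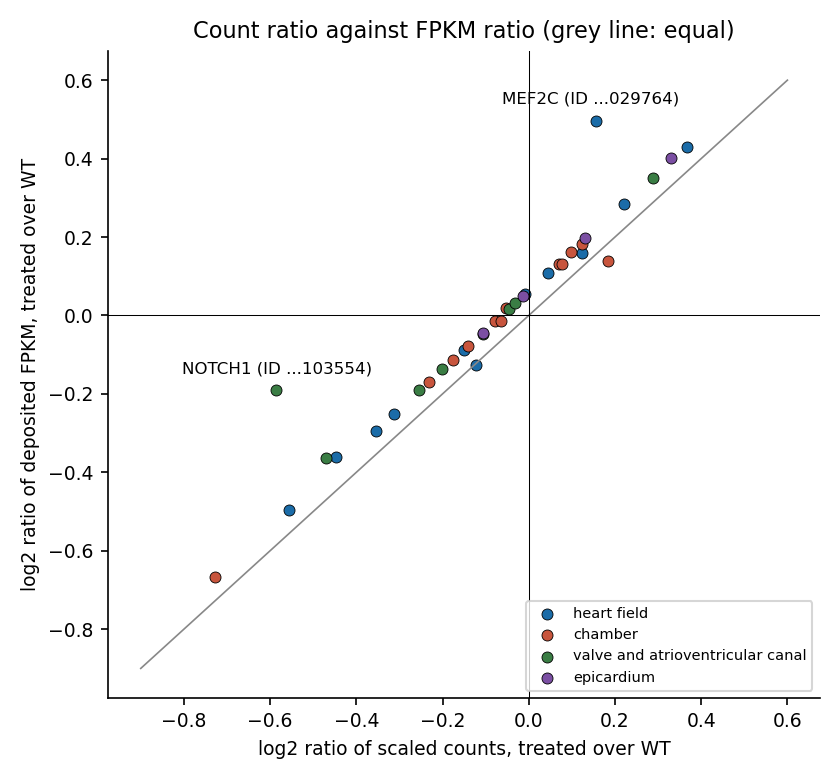
Log2 ratio of deposited FPKM against log2 ratio of scaled counts, treated over WT, for the 36 regulators by role, with a grey line of equality. Most points lie slightly above the line and nearly parallel to it, and MEF2D and TBX1 lie slightly below. Farthest from the line are the labelled NOTCH1 gene (-0.59 by counts, -0.19 by FPKM) and MEF2C gene (0.16 by counts, 0.50 by FPKM).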

How the data were processed

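The authors deposited estimated counts (expected counts) and FPKM per gene for both libraries, per the file headers; the counts are not normalised, and 10.4% of treated and 10.3% of WT values are not whole. The single-library files held the same counts for all 26597 genes. The submitters' processing notes name the build danRer11, the aligners HISAT2 and Bowtie2 2.2.8, StringTie 1.3.1, fastp 0.18.0, edgeR and DESeq2, with no settings or role for any of them.

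Estimated counts were rounded and scaled by TMM factors of edgeR 4.0.16 (R 4.3.3). Log2 ratios add 0.5 counts; intervals are exact 95% Clopper-Pearson intervals of a gene's share of both libraries' counts, checked on simulated counts, and differences between copies use the exact conditional odds ratio (Python 3.11.15, scipy 1.17.1). Names matched ignoring case, and a capital name without copy letter counted for all its IDs. Every member is named, and of each other list the highest, lowest and most abundant gene, plus all heart muscle genes. Some genes this rule names are not reported here. Members and lists were chosen with earlier results of these data known. Other settings tried were scaling by library totals, by upper quartiles or by the median of ratios of DESeq2 1.42.0, other floors, folds and priors, FPKM with a pseudocount of 0.5, and exact names. No coordinates or sequences are given.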

Additional observations from a re-analysis of the deposited data

How the results depend on the processing

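No paired analysis was possible because there is only 1 library per condition. The count of regulators 2-fold higher or lower was 0 and 0 under all scalings and floors, with FPKM, with exact names and without an interval. At a fold of 1.5 it became 0 higher and 2 lower. With exact names, which placed 5 regulators above the floor, 0 intervals lay above 1 and 1 below, in place of 5 and 9; fewer genes enter by construction. The median log2 ratio of -0.058 ranged from -0.106 with exact names to 0.0047 with library totals. Restricting to 10 CPM was chosen after seeing the data. Intervals could not be had from FPKM. No regulator whose interval excluded 1 changed direction. Ratios left their own counting interval with TMM factors for 3 of 36 regulators with FPKM and for 1 with library totals, the more abundant NOTCH1 gene at -0.52. FPKM carry no TMM factors. The less abundant NOTCH1 gene, at -0.35 by FPKM, lay inside its interval with library totals (-0.49 to -0.33). The counting interval sets the limit for the genes with few counts, such as gata4, nkx2.7, TBX5 and the epicardial genes.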
